A study of Mus musculus with 6 samples.

Results

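The genes described here are 9 transcription factor genes, most of them known from the neuroendocrine hypothalamus or related to genes that are: Sim1, its relative Sim2, its partner Arnt2, Otp, the 4 class III POU genes Pou3f1, Pou3f2, Pou3f3 and Pou3f4, and Pitx1. They were taken by symbol from the 48526 gene identifiers of the deposited count table, and all 9 were found and had enough reads to be tested among 20549 genes. The set was chosen because Sim1, Pitx1 and Pou3f2 had been seen to be higher in the libraries labelled -/-, so their values below are a description without a test. The other 6 genes were added as relatives or partners, and for them the call of the fit across all genes is given. The study compared neural progenitors made in culture from mouse embryonic stem cells of 2 genotypes, with 3 libraries from a Dmrta2 flox/flox line, the control, whose Dmrta2 gene carries recombinase sites, and 3 from a line labelled -/-. Both lines were grown in N2B27 medium with LDN193189 (100 nM) and SB431542 (10 µM), which block BMP receptors and activin or TGF-beta receptors, up to day 4. Both also received XAV939, an inhibitor of Wnt signalling (1 µM), until day 6 and the Hedgehog pathway inhibitor cyclopamine (1 µM) from day 2. Both were replated on day 5 and gave RNA on day 8. The labels end cyclopamine on day 10, which is after the RNA was taken. Each genotype is represented by 1 line, so genotype and line cannot be told apart, and p-values measure the spread between samples of a line. Libraries are named by genotype and by the letter A, B or C of the column in the table, and 3 values in a row are in that order.

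In the embryo, Sim1, a bHLH-PAS protein, pairs with Arnt2 and acts in parallel with the homeodomain protein Otp to form the neurons of the paraventricular and supraoptic nuclei. Pou3f2 acts after them in the last steps that give oxytocin, vasopressin and corticotropin-releasing hormone neurons. Class III POU proteins are encoded by intronless genes and are also used widely in neural progenitors and in upper-layer cortical neurons. Pitx1, a paired-like homeodomain protein, is known from the oral ectoderm, the pituitary and the hindlimb. Dmrta2 is a zinc finger factor of dorsal telencephalic progenitors.

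Promoter windows, from 250 bases before to 50 after the start of transcription, were found for 6 of the 9 genes in RefSeq (GRCm38.p6); Sim2, Pou3f1 and Pitx1 had no entry. The windows of Sim1, and of the class III genes Pou3f2, Pou3f3 and Pou3f4 are shown because the class III windows share an element that the Sim1 window lacks, while only Pou3f3 among them was not higher in the libraries labelled -/-. The RefSeq starts of Sim1 and Pou3f4 used here lie inside the GENCODE genes. The whole Sim1 window is within the annotated gene, which starts at 50894754, so it does not cover the GENCODE start of Sim1. For Pou3f4, part of the window before the RefSeq start is within the annotated gene. Capitals mark matches, on either strand, to TATAAA (the TATA box), to ACGTG (the core bound by Sim and Arnt dimers) and to CCAAT (the CCAAT box), the only motifs of those searched that occurred in these windows. They lie at chr10:50895401-50895700 (plus strand), chr4:22488317-22488616 (minus), chr1:42695518-42695817 (plus) and chrX:110814129-110814428 (plus).
Sim1: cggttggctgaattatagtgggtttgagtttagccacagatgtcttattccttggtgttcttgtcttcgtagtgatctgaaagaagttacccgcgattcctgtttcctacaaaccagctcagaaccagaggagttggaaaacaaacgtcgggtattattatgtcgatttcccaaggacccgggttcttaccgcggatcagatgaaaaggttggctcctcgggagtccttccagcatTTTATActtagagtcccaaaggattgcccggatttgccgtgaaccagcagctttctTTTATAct
Pou3f2: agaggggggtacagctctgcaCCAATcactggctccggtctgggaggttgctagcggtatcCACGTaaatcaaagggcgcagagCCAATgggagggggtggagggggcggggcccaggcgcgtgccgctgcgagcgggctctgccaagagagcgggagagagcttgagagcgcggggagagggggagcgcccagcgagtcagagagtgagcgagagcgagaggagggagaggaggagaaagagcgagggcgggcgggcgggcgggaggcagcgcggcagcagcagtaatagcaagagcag
Pou3f3: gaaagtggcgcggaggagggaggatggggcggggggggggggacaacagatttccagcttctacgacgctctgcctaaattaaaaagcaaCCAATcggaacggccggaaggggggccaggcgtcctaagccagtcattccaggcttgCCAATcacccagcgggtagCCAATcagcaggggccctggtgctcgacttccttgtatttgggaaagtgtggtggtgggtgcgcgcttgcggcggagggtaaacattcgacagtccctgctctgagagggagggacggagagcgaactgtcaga
Pou3f4: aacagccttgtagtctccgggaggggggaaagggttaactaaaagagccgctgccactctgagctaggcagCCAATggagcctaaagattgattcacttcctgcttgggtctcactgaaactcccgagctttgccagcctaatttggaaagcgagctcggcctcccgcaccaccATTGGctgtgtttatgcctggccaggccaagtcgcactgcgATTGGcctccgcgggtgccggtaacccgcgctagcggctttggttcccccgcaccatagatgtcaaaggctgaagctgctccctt

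The 3 class III windows each held CCAAT boxes, 2 in Pou3f2 and 3 in each of Pou3f3 and Pou3f4, where 11.7% of 32851 mouse windows of the same length held at least 2 and 3.37% at least 3. The CCAAT letters were added to the search after the sequences had been seen. Sim1 had none, and held the TATA box letters at positions -14 and 43 from the start of transcription, on the opposite strand; 13.6% of all windows hold them. The ACGTG core occurred once, in Pou3f2 at -189, and is found in 19.6% of all windows. Of the other letters searched, the octamer ATGCAAAT bound by POU proteins (1.74% of windows), the Pitx site TAATCC (7.06%), the E-box CAGCTG (16.3%) and ACANTGT, the core of the Dmrt motif (7.54%), matched in none of the 6 windows. The ratio of observed to expected CpG ran from 0.602 (Pou3f4) to 0.925 (Arnt2) over the 6 windows, beside a median of 0.384 over all windows. CCAAT boxes were present both in Pou3f3, which did not pass the test, and in Pou3f2 and Pou3f4, which were higher.

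The targeted gene was measured at 85.2, 75.1 and 79.2 CPM (counts scaled to the library's total by the TMM method) in flox/flox, against 409, 414 and 439 CPM in -/-. Dmrta2 counts were therefore higher in the libraries labelled -/-; a count over the whole gene does not test a deletion of part of it. Total counts ran from 24565560 to 39646793 per library. Of all genes tested, 35.3% passed an adjusted p of 0.05 in edgeR's quasi-likelihood test, 17.9% being higher and 17.4% lower in the libraries labelled -/-. With so much of the transcriptome called, a call on a listed gene is read against that share.

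Sim1, the bHLH-PAS factor at the head of the hypothalamic cascade, was almost silent in the control and moderately expressed in the libraries labelled -/-. Sim1 (ENSMUSG00000019913, chromosome 10, 50894754 to 50989152, plus strand) had 10, 31 and 36 reads in flox/flox, or 0.338, 1.18 and 1.43 CPM. In -/- it had 603, 479 and 732 reads, or 15.3, 13.6 and 25.8 CPM. All 3 libraries labelled -/- lay above all controls, flox/flox A was the lowest and -/- C the highest. The log2 difference was 4.23 ± 0.44 (SE), or 18.8-fold.

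Otp, the homeodomain partner in the same neurons, was at the edge of detection. It (ENSMUSG00000021685, chromosome 13, 94875602 to 94885130) had 0, 4 and 13 reads in the controls and 49, 47 and 70 in the libraries labelled -/-. The corresponding levels were 0, 0.152 and 0.518 CPM and 1.25, 1.33 and 2.46 CPM, with no overlap, and the order of the libraries was close to that of Sim1. Otp rose by 2.94 ± 0.71 (log2, SE; adjusted p = 0.0166, edgeR). Its control reads alone were too few for a test, so Otp was tested because of its reads in -/-. With so few control reads the size depends on the library set: it was 2.31 without flox/flox A and 4.46 without flox/flox C, and without flox/flox B the call was lost (2.75, adjusted p = 0.0699, edgeR).

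Arnt2, the common dimer partner, was abundant in every library and rose slightly. Arnt2 (ENSMUSG00000015709, chromosome 7, 84246278 to 84410176, minus strand) measured 162, 166 and 171 CPM in the controls and 196, 182 and 219 CPM in the libraries labelled -/-. The groups did not overlap, and the rise was 0.26 ± 0.08 (log2, SE; adjusted p = 0.0337, edgeR). The call did not survive without flox/flox A (0.24, adjusted p = 0.0939), flox/flox B (0.26, 0.104) or -/- A (0.27, 0.0623; edgeR). An antisense gene, Gm30873, overlaps 2.78% of its exonic bases and rose by 0.37 ± 0.11 (log2, SE; adjusted p = 0.0358, edgeR), and the strand setting of the counting is not known.

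Sim2, the paralog with which Sim1 shares the partner, did not follow Sim1. Its levels were 5.57, 4.86 and 3.23 CPM in the controls and 4.04, 3.12 and 5.10 CPM in the libraries labelled -/-, so that the groups overlapped. The log2 difference of Sim2 (ENSMUSG00000062713, chromosome 16) was -0.17 ± 0.25 (SE; adjusted p = 0.645, edgeR), and it was 0.01 without flox/flox A or without -/- B. Per kilobase of exon, Sim1 made up 2.88%, 10.6% and 17.9% of the RPKM (CPM per kilobase of exon) of the pair in the controls and 65.0%, 68.1% and 71.2% in the libraries labelled -/-. Sim2 was thus the more abundant of the pair in every control and Sim1 in every library labelled -/-. These shares contain Sim1, on which the set was chosen, and the level of Sim2 itself overlapped. They describe the pair and add no result of their own. Arnt2 RPKM stayed above the sum of both, at 15.5, 16.7 and 23.9 times the sum in the controls and 9.31, 10.2 and 6.80 times in the libraries labelled -/-.

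**Figure D1:**
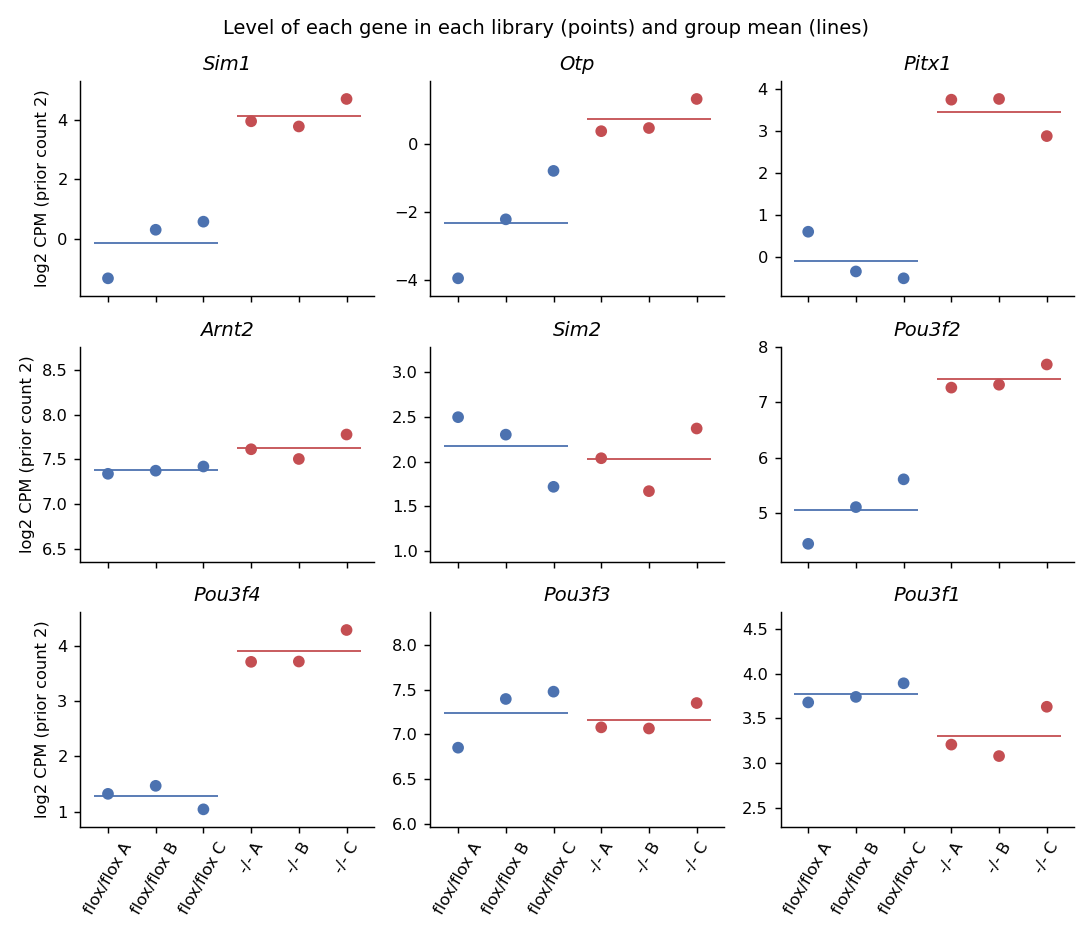
Level of each of the 9 genes (vertical axes, log2 CPM with a prior count of 2, each panel with its own range) in the 6 libraries (horizontal axis; blue, flox/flox; red, -/-), with the group means as lines. The groups separate for Sim1, Otp, Pitx1, Arnt2, Pou3f2, Pou3f4 and, in the opposite direction, Pou3f1, and overlap for Sim2 and Pou3f3.

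Among the class III POU genes, Pou3f2 and Pou3f4 were higher in the libraries labelled -/- and Pou3f3 and Pou3f1 were not. Pou3f2 (Brn2; ENSMUSG00000095139, chromosome 4, 22482780 to 22488366, minus strand) measured 21.7, 34.5 and 48.8 CPM in flox/flox, against 154, 160 and 206 CPM in -/-. The log2 difference was 2.31 ± 0.27 (SE), or 4.96-fold, and the lowest library labelled -/- was far above the highest control.

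Pou3f4 (Brn4), known from the inner ear, the hypothalamus and the striatum, was low in the control at 2.43, 2.70 and 1.99 CPM and reached 13.0, 13.0 and 19.4 CPM in the libraries labelled -/-. It (ENSMUSG00000056854, chromosome X, 110814280 to 110817207) rose by 2.67 ± 0.21 (log2, SE; 6.35-fold; adjusted p = 0.000365, edgeR). Its control libraries lay close together, without the order seen for Pou3f2, and over 12 alternatives the log2 value stayed between 2.46 and 2.77.

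Pou3f3 (Brn1; ENSMUSG00000045515, chromosome 1, 42695768 to 42703176) measured 116, 168 and 178 CPM in the controls and 135, 134 and 163 CPM in the libraries labelled -/-. The groups overlapped, and the difference was -0.10 ± 0.16 (log2, SE; adjusted p = 0.686, edgeR), turning to 0.03 without flox/flox C. Pou3f1 (Oct6; ENSMUSG00000090125, chromosome 4, 124656807 to 124660655), known from the epiblast and from Schwann cells, was at 12.7, 13.3 and 14.8 CPM and at 9.18, 8.39 and 12.3 CPM. All its libraries labelled -/- lay below the controls, yet the difference of -0.45 ± 0.16 (log2, SE) did not pass (adjusted p = 0.0575, edgeR). It passed in the fit blocked on the letter (adjusted p = 0.0138), without -/- C (0.00815, edgeR), in DESeq2 (0.0391) and in limma-voom (0.0404). An antisense gene, Gm2164, overlaps 8.57% of the exonic bases of Pou3f1 and had at most 7 reads in a library.

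The mix of class III transcripts also differed. Per length, Pou3f2 contributed 16.5%, 18.5% and 23.4% of the summed class III RPKM in flox/flox, against 52.4%, 53.6% and 53.6% in -/-. The share of Pou3f3 went from 66.3% ± 1.93 to 33.6% ± 1.34 (SD, n = 3), that of Pou3f4 from 2.70% ± 0.849 to 8.81% ± 0.722 and that of Pou3f1 from 11.6% ± 2.12 to 4.43% ± 0.298. The shares did not overlap between the groups, but they contain Pou3f2, on which the set was chosen, and the level of Pou3f3 itself overlapped, so they describe the mix and add no result of their own. The summed class III level was 23.6, 33.3 and 37.3 RPKM in the controls and 52.6, 53.3 and 68.7 RPKM in the libraries labelled -/-. Exon lengths include untranslated parts that may not all be used in these cells, so the shares depend on the annotation.

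**Figure D2:**
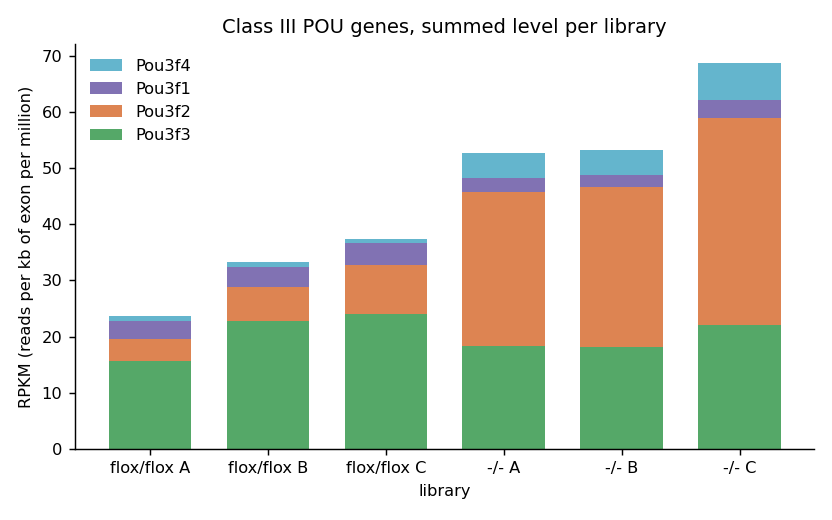
Stacked RPKM of the 4 class III POU genes (vertical axis, from 0) in each of the 6 libraries (horizontal axis). Pou3f3 keeps a similar height throughout, whereas the Pou3f2 segment grows from between 3.89 and 8.74 RPKM in flox/flox to between 27.6 and 36.8 RPKM in the libraries labelled -/-.

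The 4 class III genes are similar in sequence, which bears on whether reads can be told apart. Their coding sequences were between 59.5% (Pou3f1 and Pou3f4) and 70.3% (Pou3f2 and Pou3f3) identical over aligned bases. The most alike stretch of 90 bases, from the GENCODE M21 transcripts, is printed to show how near the copies are at their closest. Capitals mark the 17 positions at which the 4 genes are not all the same, and 73 are shared by all.
Pou3f1: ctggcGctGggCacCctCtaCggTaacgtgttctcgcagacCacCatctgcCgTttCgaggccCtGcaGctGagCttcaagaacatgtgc
Pou3f2: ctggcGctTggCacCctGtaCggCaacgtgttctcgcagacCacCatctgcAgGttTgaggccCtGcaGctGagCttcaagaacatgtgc
Pou3f3: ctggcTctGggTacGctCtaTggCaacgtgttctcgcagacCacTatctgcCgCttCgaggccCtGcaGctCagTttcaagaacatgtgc
Pou3f4: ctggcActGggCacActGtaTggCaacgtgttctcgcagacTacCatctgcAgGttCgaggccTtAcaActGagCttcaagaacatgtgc
The longest run of identical bases between any pair of their transcripts was 38, between Pou3f1 and Pou3f2, and 23 between Pou3f2 and Pou3f3. A read longer than that without errors fits only 1 of a pair; the read length is not given in the sources used here. Sim1 and Sim2 coding sequences were 62.9% identical, with a longest shared run of 26 bases in their transcripts.

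Pitx1, the hindlimb and pituitary factor, was higher in the libraries labelled -/- but did not share the library order of Sim1 and Pou3f2. Pitx1 (ENSMUSG00000021506, chromosome 13, 55825051 to 55836192, minus strand) measured 1.45, 0.722 and 0.637 CPM in flox/flox, against 13.4, 13.6 and 7.32 CPM in -/-. The log2 difference was 3.58 ± 0.37 (SE), or 12.0-fold, and the groups were far apart. Within the controls flox/flox A was the highest for Pitx1 and the lowest for Sim1, and within the other group -/- C was the lowest for Pitx1 and the highest for Sim1. Of the exonic bases of Pitx1, 10.3% overlap the unnamed genes Gm47071 and Gm28760.

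**Figure D3:**
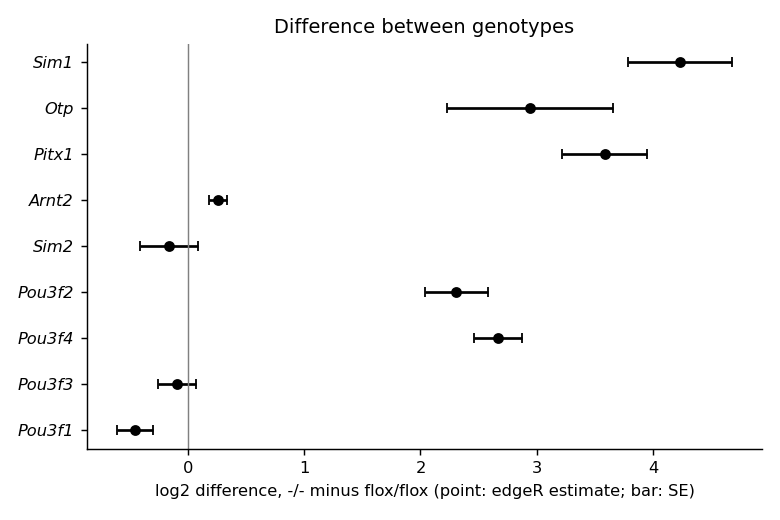
Log2 difference between the libraries labelled -/- and flox/flox for the 9 genes (points, edgeR estimate; bars, SE; vertical line, no difference). Sim1 is at 4.23 and Pitx1 at 3.58, Pou3f4, Otp and Pou3f2 lie between 2.31 and 2.94, Arnt2 is at 0.26, and Sim2, Pou3f3 and Pou3f1 are below 0.

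Of the 6 genes added as relatives, 3 rose (Otp, Arnt2 and Pou3f4) and 3 did not pass (Sim2, Pou3f1 and Pou3f3), where 35.3% of all genes passed. For Otp, the controls alone did not give enough reads for a test. For 7 of the 9 genes the groups were separate, 6 higher and 1 lower, beside 51.0% of all tested genes (25.5% higher and 25.4% lower); the set was chosen on this contrast, and nothing is read from that share. None of the 9 lies on chromosome 11.

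The order of levels per length differed between the groups. In the controls Arnt2 (21.6 ± 0.614 RPKM, SD, n = 3) and Pou3f3 (20.8 ± 4.55) came first with overlapping libraries, followed by Pou3f2 (6.26 ± 2.42), Pou3f1 (3.53 ± 0.274), Sim2 (1.08 ± 0.285) and Pou3f4 (0.811 ± 0.122), the last pair overlapping. Pitx1 (0.353 ± 0.169), Sim1 (0.114 ± 0.0665) and Otp (0.0775 ± 0.0924) were lowest, with Sim1 and Otp overlapping. In the libraries labelled -/- Pou3f2 (31.0 ± 5.08 RPKM) overlapped with Arnt2 (25.9 ± 2.48), and Pou3f3 (19.5 ± 2.23) followed. Pou3f4 (5.17 ± 1.26), Pitx1 (4.31 ± 1.34), Pou3f1 (2.59 ± 0.539) and Sim1 (2.11 ± 0.764) formed a run in which each overlapped with the next. Sim2 (0.968 ± 0.235) and Otp (0.583 ± 0.236) overlapped at the bottom.

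The library order within a group was shared by some of the 9 genes and by neuron markers. Of 16 markers of postmitotic neurons, 15 rose (8 without flox/flox A and 6 without flox/flox B), and the remaining one, Tubb3, was at 508 ± 160 and 826 ± 217 CPM (SD, n = 3; 0.70 ± 0.25, log2, SE; adjusted p = 0.0663, edgeR, and 0.000362 when blocked on the letter). Their median log2 difference was 1.02, beside -0.00 for all tested genes, and their summed level was between 1929 and 3012 CPM in the controls and between 3590 and 5874 CPM in the libraries labelled -/-. Relative to the control mean, the mean log2 level of the list was -0.29, -0.02 and 0.31 in flox/flox, against 0.74, 0.90 and 1.44 in -/-. Sim1, Otp, Arnt2, Pou3f1, Pou3f2 and Pou3f3 were likewise lowest in flox/flox A and highest, within their groups, in flox/flox C and -/- C. Among these, Pou3f1 and Pou3f3 did not rise, so the order was not confined to the genes that were higher. Sim2 and Pou3f4 were lowest of the controls in flox/flox C and highest in -/- C, and Pitx1 ran the other way in both groups. The log2 differences of Sim1 (4.23), Pou3f4 (2.67) and Pou3f2 (2.31) exceeded the median of the neuron list, and that of Arnt2 (0.26) did not reach it. Sim1 and Pou3f2 were chosen as higher, so their place above that median adds no result. Of the 16 neuron markers the largest difference was that of Slc32a1, the vesicular transporter of inhibitory transmitters (2.98). Slc32a1 had 5, 5 and 3 reads in flox/flox and 35, 42 and 53 in -/-, so its size rests on few control reads. The controls alone did not give Slc32a1 enough reads for a test. The next largest was that of Dcx (1.39). In bulk RNA, more cells of a type and more RNA per cell cannot be told apart, and the part of neuron content in these differences was not tested.

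**Figure D4:**
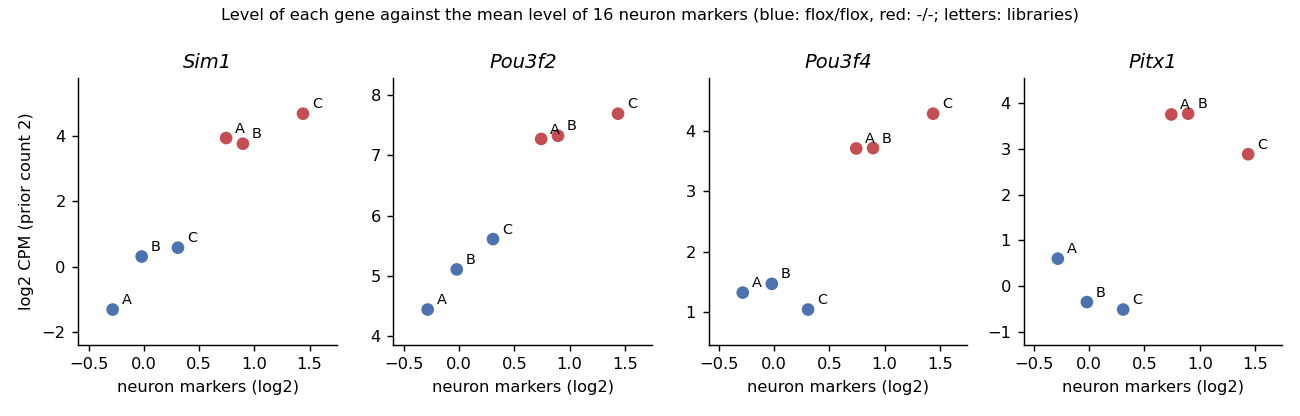
Level of Sim1, Pou3f2, Pou3f4 and Pitx1 (vertical axes, log2 CPM with a prior count of 2) against the mean log2 level of 16 neuron markers relative to the control mean (horizontal axes), 1 point per library (blue, flox/flox; red, -/-; letters, libraries). Within each group Sim1 and Pou3f2 are highest in the C library, with the most neuron marker signal, and Pitx1 is lowest there. Pou3f4 is highest in -/- C but, among the controls, lowest in flox/flox C.

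Neural progenitor markers did not move in one direction. Of 10 markers, 5 rose, among them Pax6, Notch1, Fabp7 and Sox1, and 4 fell, namely Sox2, Hes1, Vim and Nes, with summed levels between 3355 and 3889 CPM and between 3233 and 3509 CPM. Without flox/flox B 3 rose and 2 fell, and without -/- B 3 rose and 1 fell. Sox2, the usual DNA-binding partner of class III POU proteins in progenitors, fell from 235 ± 3.79 to 181 ± 4.13 CPM (SD, n = 3; adjusted p = 0.00139, edgeR). Among 8 pluripotency markers 4 fell (Esrrb, Utf1, Pou5f1 and Dppa5a) and the others did not pass, their sum going from between 112 and 120 CPM to between 65.6 and 91.1 CPM (2 falls without flox/flox A or flox/flox B). In the fit blocked on the letter, 1 pluripotency marker was higher and 5 were lower. Of 10 markers of non-neural ectoderm and neural crest, 9 were tested, 5 fell, led by Grhl3, Cdh1, Krt18 and Krt8, and Tfap2a rose, and their sum was between 340 and 484 CPM and between 149 and 223 CPM. The count of rises was 2 when blocked on the letter, with no filter on low counts, and without flox/flox A or -/- A.

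Other regional factors of the hypothalamus were called in both directions. Of 28 listed genes 20 were tested, 7 rose and 3 fell, with a median log2 difference of 0.29. Among all genes tested 17.9% were higher and 17.4% lower. Among the rises, Fezf1, a forebrain zinc finger gene, went from 119 ± 12.1 to 197 ± 12.5 CPM (SD, n = 3; adjusted p = 0.00108, edgeR), Nhlh2, a bHLH gene of hypothalamic neurons, rose 3.32-fold from 26.2 CPM, and Sox14 rose 8.57-fold from 0.155 CPM (3.10 on the log2 scale, and 3.82 without flox/flox C). Sox14 had 1, 4 and 7 reads in flox/flox and 42, 38 and 52 in -/-, so only the -/- libraries gave it enough reads for a test. Foxb1 and Lhx9 also rose.

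The falls were Vax1, a ventral forebrain and optic gene (2.68 ± 2.15 to 0.0551 ± 0.0405 CPM, SD, n = 3), Hmx3, a hypothalamic homeodomain gene (1.48 ± 1.40 to 0.0942 ± 0.0294 CPM), and Lmx1b (25.2 ± 5.00 to 14.8 ± 0.890 CPM). For Vax1 and Hmx3 the size rests on flox/flox A, the library with the most reads of both: the log2 values of -5.45 and -3.90 became -4.61 and -2.80 without it, and that of Vax1 was -6.24 without -/- A. With a filter of 1 CPM in 3 libraries 1 gene of the list fell, as the others were no longer tested. Six3, an anterior forebrain gene, did not pass, with 36.4 ± 6.39 and 41.2 ± 3.65 CPM (adjusted p = 0.346, edgeR). The 8 genes with too few reads to test included Nkx2-1, the selector gene of the ventral hypothalamus, with at most 3 reads in a library and none in -/-. Nkx2-4, Rax, Six6 and Bsx had at most 5 reads in any library.

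The oxytocin, corticotropin-releasing hormone and vasopressin genes were at or near 0, whereas Trh was detected. Oxt had at most 2 reads and Crh at most 1 read in any library, and Avp had none in all 6, which allows up to 0.120 CPM in the shallowest library (3 counts, counting error only). Of 22 listed neuropeptide genes 21 were in the table and 10 were tested. Of these 3 rose and 1 fell, where 35.3% of all tested genes were called. Kiss1 was not analysed here. Nts, neurotensin, rose from 1.52, 1.56 and 1.71 CPM to 13.6, 16.9 and 21.9 CPM, a log2 change of 3.45 ± 0.21 (SE; adjusted p = 0.000241, edgeR). Adcyap1, the gene of PACAP, rose 4.29-fold from 0.316 CPM and Pomc, the precursor of melanocortins, 2.36-fold from 0.470 CPM. Adcyap1 had 12, 8 and 6 reads in flox/flox and 46, 33 and 60 in -/-, so its fold rests on few control reads. The controls alone did not give Adcyap1 enough reads for a test. Trh, thyrotropin-releasing hormone, which Sim1 neurons of the paraventricular nucleus make, fell from 15.2 ± 2.68 to 8.99 ± 1.28 CPM (SD, n = 3; adjusted p = 0.0102, edgeR). Somatostatin (Sst), at 7.15 ± 3.36 and 6.05 ± 1.37 CPM, was not called. With no filter on low counts and in DESeq2, 5 rose, Cartpt and Pdyn being added.

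**Figure D5:**
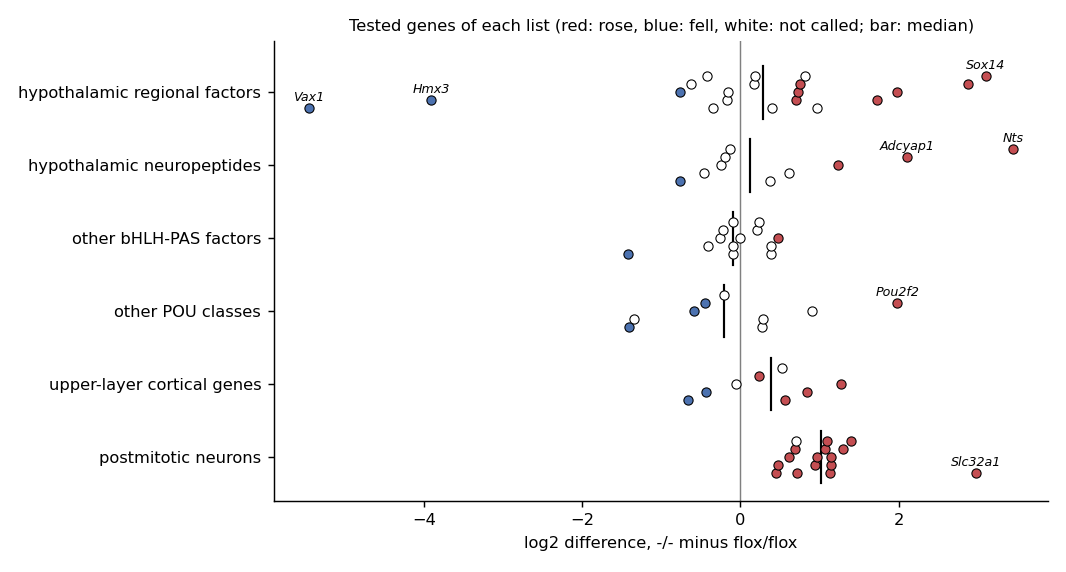
Log2 difference of the tested genes of 6 lists (horizontal axis; 1 point per gene; red, rose; blue, fell; white, not called; bar, list median; vertical offsets within a list only separate the points). The neuron markers all lie above 0, whereas hypothalamic factors reach from Vax1 at -5.45 to Sox14 at 3.10 and neuropeptides from Trh at -0.76 to Nts at 3.45. Sox14 had at most 7 reads in a control library.

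Most relatives of Sim1 and Arnt2 did not pass the test. Among 13 other bHLH-PAS genes, all tested, Npas3, a neural progenitor factor, rose from 33.1 ± 1.40 to 45.8 ± 5.78 CPM (SD, n = 3; adjusted p = 0.00928, edgeR) and Ahr, the dioxin receptor, fell from 8.86 ± 1.12 to 3.30 ± 0.596 CPM (adjusted p = 0.00111, edgeR). The other 11 did not pass, among them Arnt, the ubiquitous paralog of Arnt2 (63.7 ± 4.03 and 63.6 ± 2.66 CPM), and the hypoxia factor Hif1a (231 ± 8.43 and 216 ± 1.43 CPM). The median log2 difference of the list was -0.09, and 35.3% of all tested genes were called. Without -/- C 2 members rose.

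Among 11 POU genes of other classes, 9 were tested, 1 rose and 3 fell, with a median of -0.21. Of all genes tested 35.3% were called. Pou2f2 (Oct2), an octamer-binding factor of lymphocytes that is also made in neurons, rose from 14.7 ± 2.93 to 58.0 ± 15.7 CPM (SD, n = 3; 3.95-fold; adjusted p = 0.000822, edgeR). Among the falls, Pou4f2 fell 2.65-fold and Pou5f1 1.37-fold, but without flox/flox B or -/- B none of the 3 passed, without -/- A only that of Pou5f1 did, and with either flox/flox A or C left out only that of Pou4f2 did. In the fit blocked on the letter, 3 rose, Pou4f3 and Pou6f1 being added.

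Upper-layer cortical genes, the other setting in which Pou3f2 and Pou3f3 are known to act, rose in 4 of 8 members and fell in 2. Their median was 0.38, and among all genes tested 17.9% were higher and 17.4% lower. Mdga1 rose 1.78-fold, Rorb 2.42-fold and Cux1 1.18-fold, and Plxnd1 and Cux2 fell 1.58-fold and 1.35-fold. The fall of Cux2 was not called without flox/flox A, flox/flox C, -/- A or -/- B (adjusted p between 0.0976 and 0.118, edgeR), and the rise of Cux1 was not called without flox/flox B (0.0721).

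Markers of the pituitary were mostly at or near 0, and those of hindlimb and trunk mesoderm were detected and fell or did not pass. Of 16 markers of oral ectoderm and pituitary, 5 had no read in any library, among them Cga, Fshb, Gh and Prl, Lhx3 had at most 5 reads and 4 were tested. Of these 2 rose, Eya1 among them, and 1 fell, and the summed level was between 10.3 and 13.4 CPM in the controls and between 20.8 and 30.6 CPM in the libraries labelled -/-. The rise of Eya1 was not called without flox/flox A or flox/flox B. Of 10 markers of hindlimb and trunk mesoderm 7 were tested and 4 fell, Prrx1, Twist1, T and Foxc2 (2 without -/- B), and Tbx4, the hindlimb gene that Pitx1 activates, had at most 8 reads. Their summed level was between 65.3 and 108 CPM in the controls and between 34.0 and 50.8 CPM in the libraries labelled -/-, opposite in direction to Pitx1.

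Some genes next to the 9 changed and others did not. Within 250 kb there were 38 protein-coding genes, and 9 further genes lay within 5 kb; of the 39 tested, 11 rose and 5 fell, beside 35.3% called among all genes. The only protein-coding neighbour of Sim1, Ascc3, did not pass, and of the 8 tested neighbours of Pitx1 only Txndc15 rose, by 0.45 ± 0.08 (log2, SE). The noncoding gene Gm30731, which starts on the opposite strand 2182 bases from Pou3f2, rose with it, from 0.658 to 2.88 CPM (2.14 ± 0.34, log2, SE; adjusted p = 0.00301, edgeR). By contrast Pantr1 and Pantr2, the noncoding genes beside Pou3f3, stayed without a call, as did Pou3f3 itself (0.12 ± 0.14 and -0.30 ± 0.32, log2, SE; Pantr2 0.13 without flox/flox C). Around Pou3f1, Maneal, Inpp5b, Epha10 and 1110065P20Rik rose and Fhl3 fell, Maneal by 1.70 ± 0.19 and Fhl3 by -1.81 ± 0.24 (log2, SE). The other called neighbours were Hlcs and Morc3 (both lower) beside Sim2, Wdr41 (higher) and Tbca (lower) beside Otp, Fah (lower) beside Arnt2, Fbxl4 (higher) beside Pou3f2, and Gpr45 and Mrps9 (higher) beside Pou3f3. Of these, the call of Hlcs held with each library left out in turn; Fah lost it without -/- A, Morc3 without flox/flox B or -/- B, and the others without 3 or more of the libraries, as did 1110065P20Rik and Gm30873.

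Across the 6 libraries the genes whose log2 CPM was most like that of Sim1, by Pearson's r among 11395 protein-coding genes of at least 5 CPM, were Tox, Zeb2, Kif21a and Ogfr, with r between 0.996 and 0.999. Those most like Pou3f2 were Frrs1l, Spsb4, Kif21a and Ctnnd2, and those most like Pitx1 were Foxred2, Qars, Ttyh2 and Ube2z. With 2 groups this measure mostly reflects the group difference, and 950, 1047 and 537 genes reached an r over 0.95. After the group means were taken out, Pou3f3 was among the 4 genes nearest to Sim1 (r = 0.998 over the 6 deviations), beside Wiz, Rnf181 and Elovl2. So high an r was common over these few deviations: 105 genes were over 0.95 with Sim1, 244 with Pou3f2 and 243 with Pitx1. Within groups Pou3f2 was nearest to Frrs1l, Ilf2, Stxbp5 and Lsamp, and Pitx1 to Cldn6, Arhgap31, Cyth3 and Mrps35. These values are descriptions over 6 libraries of 2 groups that also differ in depth.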

How the data were processed

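RNA was sequenced from 6 libraries of neural progenitor cells, 3 per genotype, made from 1 µg RNA with a stranded mRNA kit, per the labels' protocols. The authors deposited raw counts of reads for each Ensembl gene, made with BWA 0.5.9 and featureCounts 1.4.6 on mm10 (GRCm38), per the submitters' processing notes. For the annotation release, strand setting and multimapping reads, the sources used here give nothing. The deposited counts carry the label markdup, for marked duplicates, and whether marked reads were counted is not given. Columns were mapped to a genotype by name, and 0 columns were left out. Symbols, positions and exon lengths came from GENCODE M21 (GRCm38) by identifier, for 48144 of 48526 identifiers.

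Counts were tested in R 4.3.3 with edgeR 4.0.16 (filterByExpr with minimum count 10 and total 15, TMM, glmQLFit and glmQLFTest, group alone, two-sided), adjusted by Benjamini-Hochberg over 20549 genes at 0.05, and the fit was checked on simulated data. The SE is the log2 estimate divided by the square root of the F statistic. "Rose" and "fell" mean past that threshold. RPKM is CPM per kilobase of merged exons. Libraries of a group differed by more than sampling noise (chi-square per gene 5.47 to 29.8) and counted separately. The deviations of libraries with the same column letter from their group means correlated at 0.275 (A), 0.101 (B) and 0.264 (C), all over 0.1, so the letters were taken as pairs from the data, and the blocked value is given beside a member, a gene named with its test or a list count where it changes the call or moves the count by over 1.5 times. Alternatives were DESeq2 size factors, no filter, a filter of 1 CPM in 3 libraries, DESeq2 1.42.0, limma-voom (limma 3.58.1), the letter as a block, and each library left out.

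The members, the 5 gene lists and the 6 marker lists were chosen with earlier results of these data known. Named genes are the 9 members, Dmrta2, up to 4 called genes per list and direction by adjusted p, called genomic neighbours, and the 4 genes most like Sim1, Pou3f2 and Pitx1; any other gene named with values was picked once its values were known. Some listed genes that the rule names are counted but not reported here. Intervals and floors cover counting error only.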

Additional observations from a re-analysis of the deposited data

How the results depend on the processing

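Over 12 alternatives the log2 differences of Sim1 (3.80 to 4.62), Pou3f2 (2.06 to 2.63), Pou3f4 (2.46 to 2.77) and Pitx1 (3.39 to 4.07) kept their direction. Otp (2.31 to 4.46 with a library left out) lost its call without flox/flox B, and limma-voom gave 3.84. Arnt2 (0.19 to 0.33) lost its call without flox/flox A, flox/flox B or -/- A. Pou3f1 (-0.62 to -0.33) passed in DESeq2 (-0.45), in limma-voom (-0.48), with the replicate block on the column letter (-0.47) and without -/- C. The sign changed for Sim2 (-0.35 to 0.0089 with a library left out) and Pou3f3 (-0.27 to 0.030), and among genes named beside them for Arnt (0.017 with no filter, 0.0030 in DESeq2, and -0.037 to 0.047 with a library left out), Pantr2 (-0.56 to 0.13) and Sst (-0.54 to 0.13). The cause was not tested.

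Leaving out 1 library gave between 2315 and 3510 higher genes overall and between 2342 and 3336 lower ones, the smallest numbers being without flox/flox B and without -/- B, against 3679 and 3571. Hypothalamic factors had 1 fall with the filter of 1 CPM in 3 libraries, which tests fewer genes. Neuropeptides had 5 rises with no filter and in DESeq2. With a library left out, 1 to 2 other bHLH-PAS genes rose, 0 to 3 other POU genes fell, and 1 to 2 upper-layer genes fell. With the replicate block on the column letter 4358 genes were higher and 4171 lower among all genes, 3 other POU genes, 8 hypothalamic factors (Gsx1 added) and 5 upper-layer genes (Unc5d added) rose, and among the members the call of Pou3f1 alone changed. At these depths 1 read stood for 0.0254 to 0.0398 CPM, so values for Otp in flox/flox rest on at most 13 reads.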
